A study of Mus musculus with 6 samples.

Results

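The constitutive proteasome genes were read in 6 RNA sequencing libraries of mouse bone marrow-derived macrophages, cells matured from marrow in the presence of M-CSF, a macrophage growth factor. All 6 libraries came from C57BL/6 cells taken on day 7 of culture and stimulated for 8 h with LPS, a bacterial cell wall component, at 100 ng/ml, and no library came from unstimulated cells. The genotypes were wild type (WT), a knockout of Ch25h (Ch25hKO), the gene of the enzyme that makes 25-hydroxycholesterol, and a double knockout of the liver X receptors LXRα and LXRβ (LXRdKO), with 2 libraries each. The sources used here do not say which part of each gene was deleted, or whether the 2 libraries of a genotype came from separate animals or cultures. The spread behind each p-value is therefore that between these libraries and may be technical.

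Genes were chosen by symbol: those beginning with Psma to Psmg and a number, without the immunoproteasome genes Psmb8, Psmb9 and Psmb10, and with at least 60 counts summed over the 6 libraries. The rule found 45 of the 23337 symbols in the table. Psmb11, the thymus-specific catalytic subunit, lay just outside with 19 counts, and the testis-specific core subunit gene Psma8 lay just inside with 70. Psmc3ip, with 179 counts, matched by its letters but encodes a meiotic recombination cofactor and no proteasome subunit, so 44 of the 45 are proteasome genes. They are 8 genes of the alpha rings and 7 of the beta rings of the 20S core, 6 ATPase and 14 further genes of the 19S cap, 4 activator genes, and 5 genes of assembly factors and an inhibitor. All 45 passed the filter on low counts.

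The proteasome is the cell's main machine for degrading proteins tagged with ubiquitin. Its barrel, the 20S core, has outer rings of alpha subunits that gate the entrance and inner rings of beta subunits, of which Psmb5, Psmb6 and Psmb7 encode the catalytic ones. The 19S cap binds and removes ubiquitin, and its ring of Psmc ATPases unfolds the substrate and threads it into the core. Macrophages exposed to interferon or bacterial products are known to exchange the catalytic subunits for the immunoproteasome subunits Psmb8, Psmb9 and Psmb10 and to make the PA28 activator encoded by Psme1 and Psme2, which together change the peptides offered on MHC class I. Shortage of proteasome activity is known to raise proteasome genes through the transcription factor NRF1 (Nfe2l1), which binds antioxidant response elements in their promoters.

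Promoter sequence was read from RefSeq (GRCm38.p6), which held an entry of 250 bases before to 50 after the start for 37 of the 45 genes. The 100-base stretches below lie upstream of both the RefSeq and the GENCODE start of each gene. They are shown for ATPase genes with and without an ETS motif and for catalytic core genes with an antioxidant response element core, 5′ to 3′ on the gene's own strand. Capitals mark matches on either strand to the ETS motif (CCGGAAG), the element core (TGACNNNGC) or the CCAAT box (CCAAT). No match overlapped another in these stretches.
Psmc2, chr5:21785175-21785274, plus strand: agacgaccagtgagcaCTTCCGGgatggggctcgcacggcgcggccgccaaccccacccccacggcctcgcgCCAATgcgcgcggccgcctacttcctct
Psmc4, chr7:28050102-28050201, minus strand: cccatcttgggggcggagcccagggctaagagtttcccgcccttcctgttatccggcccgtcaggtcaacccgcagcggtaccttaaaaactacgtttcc
Psmc6, chr14:45329688-45329787, plus strand: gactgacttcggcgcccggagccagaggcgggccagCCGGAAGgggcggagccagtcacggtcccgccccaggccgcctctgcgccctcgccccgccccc
Psmb5, chr14:54618023-54618122, minus strand: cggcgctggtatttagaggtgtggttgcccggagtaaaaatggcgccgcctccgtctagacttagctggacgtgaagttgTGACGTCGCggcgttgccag
Psmb6, chr11:70525257-70525356, plus strand: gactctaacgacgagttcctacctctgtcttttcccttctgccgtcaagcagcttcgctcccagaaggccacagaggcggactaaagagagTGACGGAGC

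The ETS motif was present in 15 of the 37 promoters (40.5%), against 8.86% of the 32851 promoters in the RefSeq table and 16.7% of the 11634 promoters of genes tested here. It was found in 9 of 17 promoters of the 19S cap, among them Psmc1, Psmc2, Psmc6, Psmd4 and Psmd6. In the 20S core it was in 1 of 11, that of Psma6, and among activators in 2 of 4, Psme3 and Psme4. The promoters of Psmg1, Psmg3 and Psmc3ip held it too. The antioxidant response element core was present in 6 of 37 (16.2%), near its share of 12.4% in all promoters and 14.6% in those of tested genes. A variant of this core (TGAGNNNGC) was present in 12 of 37 (32.4%), above its share of 17.6% in all promoters and 19.8% in those of tested genes. In Psmb5 the core lay 47 to 39 bases before the start and in Psmb6 9 to 1 bases before it. The CCAAT box was found in 12 of 37 (32.4%, against 37.4% of all). Among 11 motifs searched on both strands, the interferon regulatory factor element was in 5 of 37 (13.5%, against 3.44% of all) and the GC box CCGCCC in 22 of 37 (59.5%, against 35.7% of all and 60.3% of those of tested genes). In cap and core promoters, the GC box was in 13 of 17 and 5 of 11. The variant and the CCAAT box were each in 5 of 17 and 5 of 11. For the element core it was 3 of 17 and 2 of 11. A match is a description of the letters and shows no binding.

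Library totals ran from 41650513 to 45872964 counts, and the 45 genes took 0.539% to 0.605% of them. The 2 libraries of each genotype were further apart than sampling alone gives: chi-square divided by its degrees of freedom was 12.2 for the WT pair, 5.08 for Ch25hKO and 4.22 for LXRdKO. The WT pair differed in the proteasome genes themselves: WT replicate 1 was above WT replicate 2 in 36 of 45, with a median log2 difference of 0.0827 against -0.00351 over all tested genes. In Ch25hKO, replicate 2 was the higher one in 37 of 45. The targeted genes matched the labels. Ch25h was at 70.2 and 70.8 CPM (counts as a share of the scaled library total) in WT and 0.969 and 1.31 in Ch25hKO, while Nr1h3 and Nr1h2, the genes of LXRα and LXRβ, fell in LXRdKO from 15.98 and 17.4 to 0.957 and 0.927 CPM and from 29.1 and 32.3 to 0.798 and 0.792 CPM.

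Levels of different genes were compared in WT as CPM per kilobase, using 1 annotated GENCODE transcript length per gene, so that the order depends on that choice. The PA28 genes led, with Psme2 at 627 ± 41.3 and Psme1 at 534 ± 37.5 CPM per kilobase (SD, n = 2). Both stood above every 20S and 19S gene, the highest of which were the alpha ring genes Psma6 (328 ± 23.4) and Psma5 (277 ± 7.21) and the caspase-like catalytic gene Psmb6 (228 ± 7.25). The medians were 129 over 7 alpha genes without Psma8, 102 over 7 beta genes, 61.1 over 6 ATPases and 59.0 over 14 further cap genes. Subunits of a ring are present in equal number in the assembled particle, yet their transcripts spanned 6.33-fold in the alpha ring without Psma8, 5.90-fold in the beta ring and 3.10-fold among the ATPases. These spans also depend on the lengths chosen. Psma2, the lowest alpha gene per kilobase apart from Psma8, was divided by 2911 bases. Before that division Psma2 was at 151 CPM, above Psma1 at 106. Neighbours in the order often lay within 1 SD of each other, such as Psmb4 (104 ± 8.35) and Psmb7 (102 ± 0.0424). The assembly factors Psmg1 to Psmg4 and the inhibitor Psmf1 were lowest, at 1.99 to 4.85, apart from Psma8 at 0.175. The 3 immunoproteasome genes lay between 178 and 283, each above the constitutive gene it replaces. Psmb8 was at 225 ± 18.4 against Psmb5 at 47.2 ± 1.07, and Psmb10 at 178 ± 4.48 against Psmb7 at 102. Psmb9 was at 283 ± 27.8 against Psmb6 at 228.

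**Figure D1:**
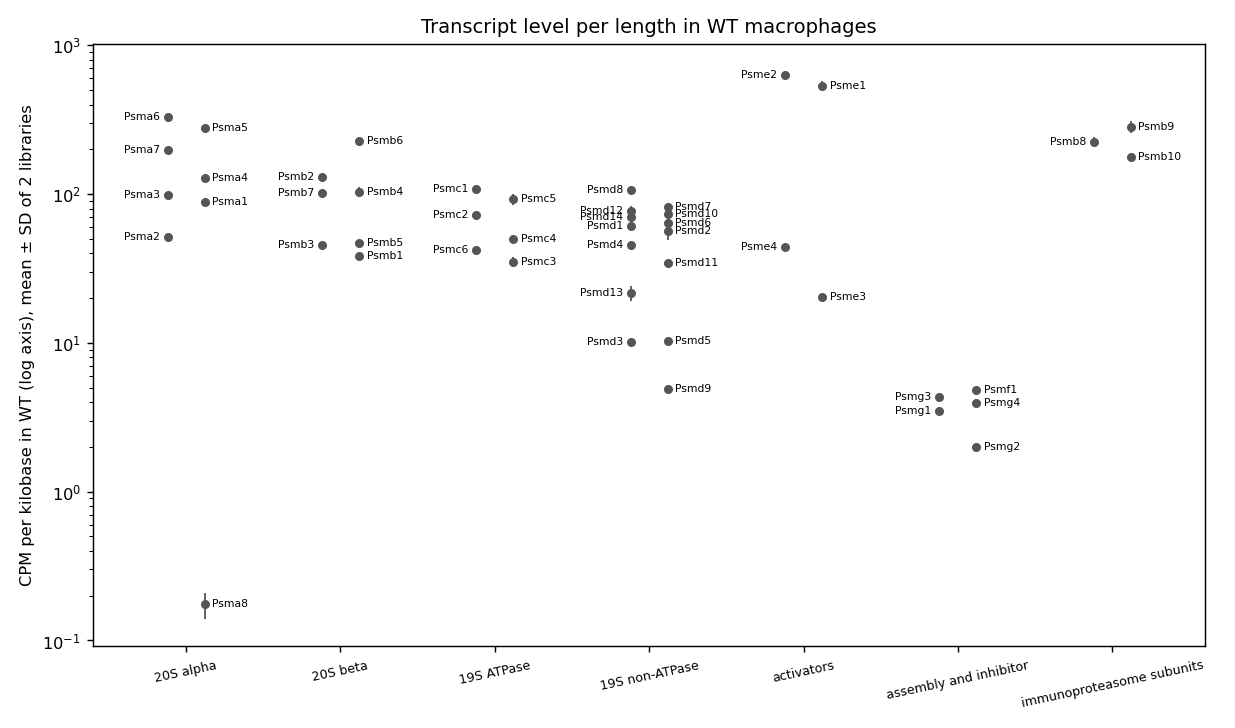
Level of each proteasome gene in WT macrophages as CPM per kilobase of transcript on a log axis, mean ± SD of 2 libraries, grouped by role. Psme2 (627) and Psme1 (534) are the highest, and the assembly and inhibitor genes lie between 1.99 and 4.85.

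In LXRdKO against WT, transcripts of the 19S cap were lower and those of the 20S core mostly did not pass the test. Of the 20 cap genes 13 fell and 0 rose, and of the 15 core genes 2 fell and 1 rose. Cap genes were counted by the Psmc and Psmd symbols, which take in 3 chaperones of cap assembly. Adrm1 and Shfm1, cap subunit genes with other symbols, are not among the 20 and did not pass (-0.08 and 0.08). Of all 45 genes, 15 fell, 6 rose and 24 did not pass (edgeR quasi-likelihood test, Benjamini-Hochberg adjusted p under 0.05 over 12923 genes). That is 33.3% lower and 13.3% higher, against 15.5% lower and 16.4% higher among all genes tested, of which 31.8% were called in either direction. The median log2 fold change was -0.06 over the 45, -0.20 over the cap and -0.05 over the core, against 0.003 over all tested genes. Without WT replicate 1 the medians of the 45, the cap and the core were -0.02, -0.11 and 0.003, and without WT replicate 2 they were -0.12, -0.27 and -0.10. Here 20 of 45 had both LXRdKO libraries below both WT libraries and 9 had both above, where 30.6% and 32.9% of all tested genes did. The number that fell came to 9 without LXRdKO replicate 1 or LXRdKO replicate 2, and the number that rose to 3 without WT replicate 2 or Ch25hKO replicate 1, to 1 without LXRdKO replicate 1 and to 2 without LXRdKO replicate 2.

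All 6 ATPase genes fell in LXRdKO, with a median of -0.23. From Psmc1 to Psmc6 they lie on chromosomes 12, 5, 2, 7, 11 and 14 (GENCODE, GRCm38). Psmc3 (chr2:91054009-91066369) lies 117692 bases from Nr1h3 (chr2:91184061-91202834), a gene targeted in LXRdKO. Psmc4 lies 16499515 bases from Nr1h2, the other gene targeted there, on chromosome 7. The part of these positions in the changes of Psmc3 and Psmc4 was not tested. Psmc6 was at 97.3 and 91.7 CPM in the WT libraries, 101 in both Ch25hKO libraries, and 74.9 and 69.6 in LXRdKO. It had the largest change of the 6, at -0.39 ± 0.06 (log2 fold change ± SE, n = 2 libraries per group, edgeR adjusted p = 3.64e-05), which is 1.31-fold. Psmc1 was at 180.0 and 166 CPM in WT, 159 and 160.5 in Ch25hKO, and in LXRdKO 147 and 143 (-0.26 ± 0.05, edgeR adjusted p = 0.00125). For Psmc2 the values were 131 and 126 CPM in WT, 129 and 133 in Ch25hKO, and in LXRdKO 109 and 108 (-0.24 ± 0.05, edgeR adjusted p = 0.00131). In each of these genes the LXRdKO libraries lay below the other 4, with no overlap.

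The other 3 ATPases were also below WT in both LXRdKO libraries. Psmc4 was at 74.1 and 70.0 CPM in WT, 74.4 and 74.7 in Ch25hKO, and in LXRdKO 62.05 and 61.8. Psmc3 was at 60.5 and 54.1 CPM in WT, 56.8 and 60.8 in Ch25hKO, and in LXRdKO 50.2 and 49.0. Psmc5 was at 129 and 114 CPM in WT, 124 and 129 in Ch25hKO, and in LXRdKO 110.5 and 105, the smallest change of the 6 (-0.17). The calls of Psmc3 and Psmc5 were lost when WT replicate 1, LXRdKO replicate 1 or LXRdKO replicate 2 was left out, which left 4 called ATPases, and Psmc5 was also lost with DESeq2 and in 3 further alternatives. Psmc1, Psmc2, Psmc4 and Psmc6 were called in all 14 alternatives.

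**Figure D2:**
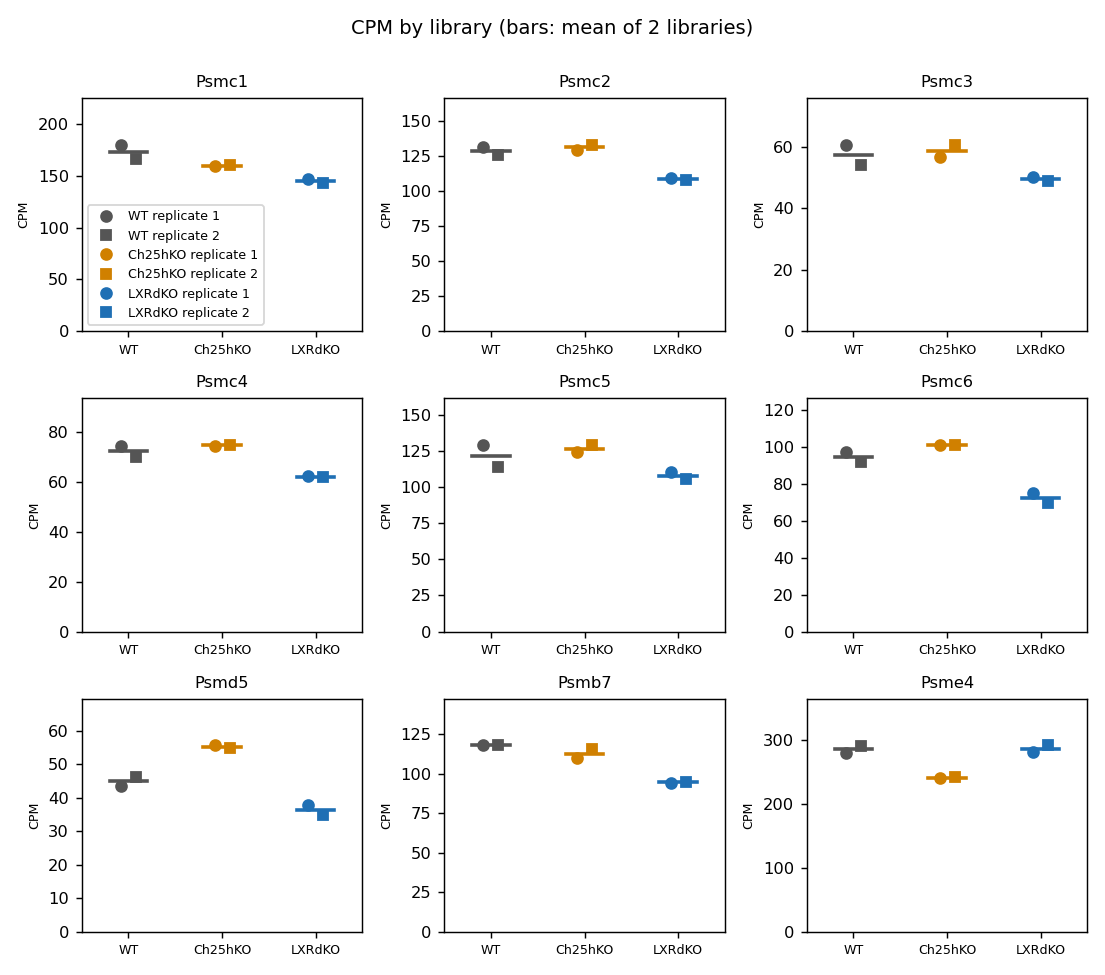
CPM by library for the 6 ATPase genes and for Psmd5, Psmb7 and Psme4, with bars at the mean of 2 libraries. The LXRdKO points of each Psmc gene lie below both WT points, Psmd5 is high in Ch25hKO and low in LXRdKO, and Psme4 is low in Ch25hKO.

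The other 14 cap genes include scaffold subunits, the deubiquitinase Psmd14 and 3 chaperones of cap assembly, Psmd5, Psmd9 and Psmd10. In LXRdKO 7 of them fell and 0 rose. Psmd11, a scaffold subunit of the lid, was at 99.1 and 96.7 CPM in WT, 89.7 and 94.8 in Ch25hKO, and in LXRdKO 80.1 and 82.2 (-0.27 ± 0.05, edgeR adjusted p = 0.000682). Psmd1, the large scaffold of the base, was at 196 and 186 CPM in WT, 203 and 199 in Ch25hKO, and in LXRdKO 161 and 156 (-0.27 ± 0.05, edgeR adjusted p = 0.000657). Psmd5, the chaperone, was at 43.7 and 46.3 CPM in WT, 55.7 and 54.8 in Ch25hKO, and in LXRdKO 38.0 and 35.0 (-0.30 ± 0.06, edgeR adjusted p = 0.000793). LXRdKO was the low group in all of these, and Ch25hKO was the high group for Psmd5 and Psmd1.

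The remaining calls among these cap genes were Psmd2, Psmd12, Psmd13 and Psmd14, at -0.18 to -0.21. The first 3 were lost without WT replicate 1 or either LXRdKO library, and Psmd13 also with DESeq2 and with the replicate number as a block. Psmd14, which removes ubiquitin from the substrate, was at 111 and 105 CPM in WT and 93.1 and 94.9 in LXRdKO, and its call was lost without LXRdKO replicate 1. The chaperones Psmd9 and Psmd10 did not pass, at 0.07 and 0.01. Without single libraries the number of all 20 cap genes that fell was 8 without WT replicate 1, 16 without WT replicate 2, 7 without LXRdKO replicate 1 and 8 without LXRdKO replicate 2, of which 4, 10, 3 and 4 were among these 14.

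Summed over each group of subunits, the same pattern held in both LXRdKO libraries. The 6 ATPases summed to 672 and 622 CPM in WT, 645 and 659 in Ch25hKO, and in LXRdKO 554 and 537, 84.3% of the WT mean. The other 14 cap genes summed to 89.8% of WT, the alpha genes to 94.6% and the beta genes to 97.9%. Within a library, a ratio that scaling of libraries cannot move, the summed cap stood to the summed core at 0.919 and 0.891 for WT, 0.913 and 0.902 for Ch25hKO, and 0.838 and 0.829 for LXRdKO. The LXRdKO ratios lay below the other 4. With 2 libraries against 2, an exact two-sided permutation test cannot go below p = 0.333, and no other test of these ratios was run.

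**Figure D3:**
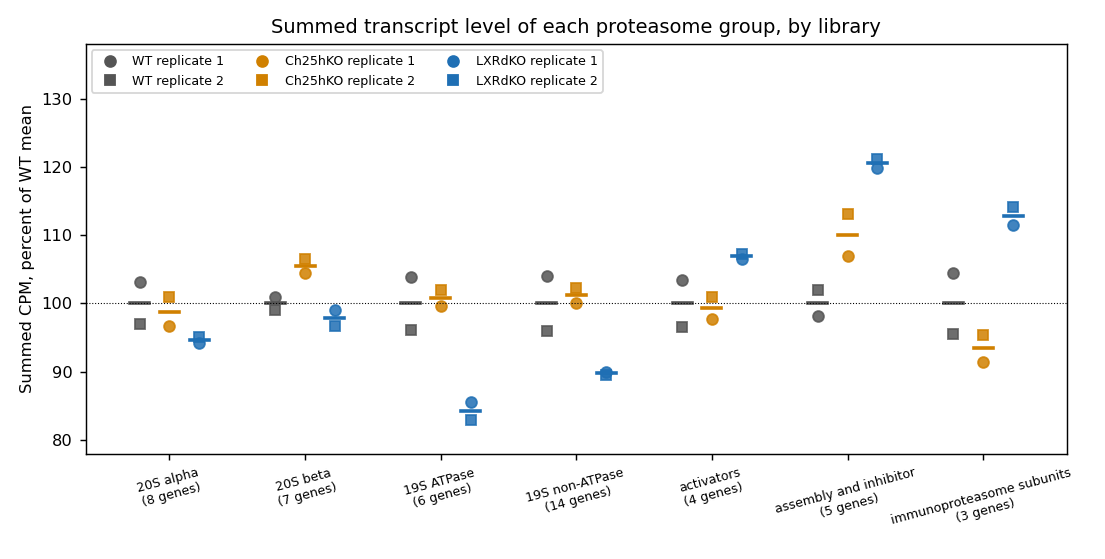
Summed CPM of each group of proteasome genes by library, as a percent of the WT mean, with bars at the mean of 2 libraries. The ATPases are lowest in LXRdKO (84.3% of WT) and the assembly and inhibitor genes highest (120.5%), and the axis does not start at 0.

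In the 20S core, LXRdKO changed few genes and in both directions. Psma6, an alpha ring subunit, was at 359 and 325 CPM in WT, 373 and 381 in Ch25hKO, and in LXRdKO 299 and 288 (-0.22 ± 0.06, edgeR adjusted p = 0.00617), a call lost without LXRdKO replicate 2. The trypsin-like catalytic gene Psmb7 was at 118 in both WT libraries, 110.0 and 116 CPM in Ch25hKO, and 94.4 and 94.9 in LXRdKO (-0.32 ± 0.05, edgeR adjusted p = 0.000105), and was called in all 14 alternatives. The chymotrypsin-like catalytic gene Psmb5 was at 43.1 and 41.7 CPM in WT and 47.2 and 47.0 in LXRdKO (0.15 ± 0.05, edgeR adjusted p = 0.0415), a call kept in 3 of 14 alternatives. Psmb6 did not pass (0.05 ± 0.05, edgeR adjusted p = 0.549). The 3 catalytic genes of the constitutive core thus stood at different values in LXRdKO. Reads from any pseudogene copies of these or other genes could have been counted with them, which was not tested.

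Of the 9 genes of activators, assembly factors and the inhibitor, 5 rose and 0 fell in LXRdKO, where 16.4% of all tested genes rose. The 5 came to 1 without LXRdKO replicate 1, 2 without LXRdKO replicate 2, and 3 without WT replicate 2 or Ch25hKO replicate 1 or with DESeq2. Psme2, the beta chain of PA28, was at 631 and 575 CPM in WT, 619.6 and 645 in Ch25hKO, and in LXRdKO 681 and 680.4 (0.17 ± 0.06, edgeR adjusted p = 0.0274), a call lost in 6 of 14 alternatives. Its partner Psme1 did not pass (0.05 ± 0.06, edgeR adjusted p = 0.595). Psme3, the nuclear PA28 gamma, was at 55.2 and 53.6 CPM in WT, 65.2 and 64.9 in Ch25hKO, and in LXRdKO 64.3 and 61.8 (0.21 ± 0.05, edgeR adjusted p = 0.005), a call lost without LXRdKO replicate 1. Psmg3, a chaperone of alpha ring assembly, was low throughout, at 3.60 and 4.01 CPM in WT, 4.82 and 5.07 in Ch25hKO, and in LXRdKO 5.40 and 5.95 (0.58 ± 0.12, edgeR adjusted p = 0.00159). Psmg4 and the inhibitor gene Psmf1 also rose, at 0.47 and 0.22, and both calls were lost with DESeq2 and when either LXRdKO library was left out.

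Other measures moved with the LXRdKO libraries. Rn45s, the precursor of ribosomal RNA, made up 1.01% and 1.06% of counts in LXRdKO and 1.26% to 1.30% in the other 4 libraries. Of 8 macrophage markers, 6 were higher in LXRdKO and 0 lower, with a summed level of 20361 to 20541 CPM against 17069 to 18523 in WT. The calls of Emr1, Lyz2 and Fcgr1 among them were lost without either LXRdKO library, which left 3. Of 4 tested neutrophil and granulocyte precursor markers 3 were lower, and all 6 listed summed to 18.8 to 19.5 CPM against 38.6 to 39.5 in WT. S100a8 made up most of that sum, at 16.4 and 16.6 CPM in LXRdKO against 35.9 and 35.1 in WT. Camp did not pass (0.44), and Mpo, called lower, had 37 counts over the 6 libraries. Stromal markers summed to 14.4 to 16.1 CPM against 12.2 to 12.6, with Col1a1 and Pdgfrb higher. Col1a2 (0.07), Col3a1 (0.21), Pdgfra (0.99) and Dcn (-0.33) did not pass. Dendritic cell markers summed to 21.6 to 23.4 CPM against 27.3 to 28.2, with only Ccr7 passing, from a mean of 9.83 to 4.33 CPM. Xcr1 (0.02), Clec9a (0.19), Flt3 (-0.45), Zbtb46 (-0.53) and Siglech (-0.68) did not pass. The megakaryocyte marker Pf4 was higher (0.41), and Itga2b did not pass (-0.48). The part of these measures in the lower cap transcripts was not tested. Markers of B cells summed to at most 1.08 CPM in any library and those of T and NK cells to at most 2.99 CPM. The red cell genes Hbb-b1 and Hba-a1 had no count. In bulk RNA, fewer cells of a type and less RNA per cell cannot be told apart.

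In Ch25hKO against WT, few proteasome genes differed. Of the 45 genes 8 rose, 2 fell and 35 did not pass, which is 22.2% called against 39.3% of all tested genes (edgeR, adjusted p under 0.05). By direction, 17.8% rose and 4.44% fell, against 19.8% and 19.5% of all tested genes, and the median was 0.04 against 0.006. That median was 0.10 without WT replicate 1, 0.02 without Ch25hKO replicate 2 and -0.016 without WT replicate 2, so its sign rests on 1 WT library. Both Ch25hKO libraries lay above both WT libraries in 18 of 45 and below in 7, where 35.6% and 32.7% of all tested genes did. Leaving out Ch25hKO replicate 1 left 5 that rose and leaving out Ch25hKO replicate 2 left 4, and 7 fell without WT replicate 2 and 1 without Ch25hKO replicate 1. Of the 6 ATPases 0 passed by edgeR and 0 by DESeq2, and 1, Psmc1, had an unadjusted edgeR p under 0.05 (-0.11 ± 0.05, edgeR adjusted p = 0.101). Without WT replicate 1, 2 ATPases were higher, and without WT replicate 2, 1 was lower. Of the 20 cap genes 2 rose, both chaperones of cap assembly: Psmd5 (0.30 ± 0.06, edgeR adjusted p = 0.000580) and Psmd10 (0.18 ± 0.05, edgeR adjusted p = 0.0111), the latter lost without WT replicate 2 or either Ch25hKO library.

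The core genes that rose in Ch25hKO were all beta subunits. Psmb5 was at 51.5 and 51.9 CPM against 43.1 and 41.7 in WT (0.29 ± 0.05, edgeR adjusted p = 0.000390). Psmb3, a structural beta subunit, was at 41.5 and 42.5 CPM against 34.8 and 35.1 in WT (0.27 ± 0.06, edgeR adjusted p = 0.00134). Psmb6 was at 203 and 206 CPM against 178 and 186 in WT (0.17 ± 0.05, edgeR adjusted p = 0.0147), a call lost when either Ch25hKO library was left out. Neither library of Ch25hKO overlapped WT in these 3 genes. Psma3, an alpha subunit, fell (-0.17 ± 0.05, edgeR adjusted p = 0.0159), with the same loss when a Ch25hKO library was left out.

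Among regulators in Ch25hKO, 2 activators moved in opposite directions. Psme4, which encodes the activator PA200, was at 279.6 and 290.1 CPM in WT, 239.5 and 242 in Ch25hKO, and in LXRdKO 280.6 and 291 (-0.24 ± 0.05 in Ch25hKO, edgeR adjusted p = 0.00110). Psme3 rose (0.26 ± 0.05, edgeR adjusted p = 0.000831). The PA28 pair did not pass, at -0.02 for Psme1 and 0.07 for Psme2. The assembly chaperones Psmg2 and Psmg3 rose, at 0.54 ± 0.16 and 0.38 ± 0.13 (edgeR adjusted p = 0.0104 and 0.0236), from at most 4.01 CPM in WT, and both calls were lost with DESeq2, without WT replicate 1 and without either Ch25hKO library. Markers of stromal cells moved with this genotype, 6 of 6 being higher in Ch25hKO with a sum of 28.0 to 30.8 CPM against 12.2 to 12.6 in WT. The calls of Col3a1 and Pdgfra among them were lost with DESeq2. Of 6 dendritic cell markers 3 were lower, with a sum of 12.8 to 13.8 CPM against 27.3 to 28.2. Markers of red cells and megakaryocytes summed to 40.5 to 41.3 CPM in Ch25hKO against 22.9 to 23.4 in WT, with the globin genes at 0. Most of this sum was Pf4, at 39.9 and 40.9 CPM against 22.4 and 22.8. Neutrophil and granulocyte precursor markers summed to 51.7 to 54.5 CPM against 38.6 to 39.5, with S100a8 higher (0.47). Camp (0.65), S100a9 (0.05) and Mpo (-0.85) did not pass. Of 8 macrophage markers 1 was higher, Emr1 (0.20), 2 were lower, Mertk (-0.51) and Fcgr1 (-0.26), and 5 did not pass. The nuclear RNA Neat1 was higher too (0.74). The part of these genes in the proteasome values was not tested.

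**Figure D4:**
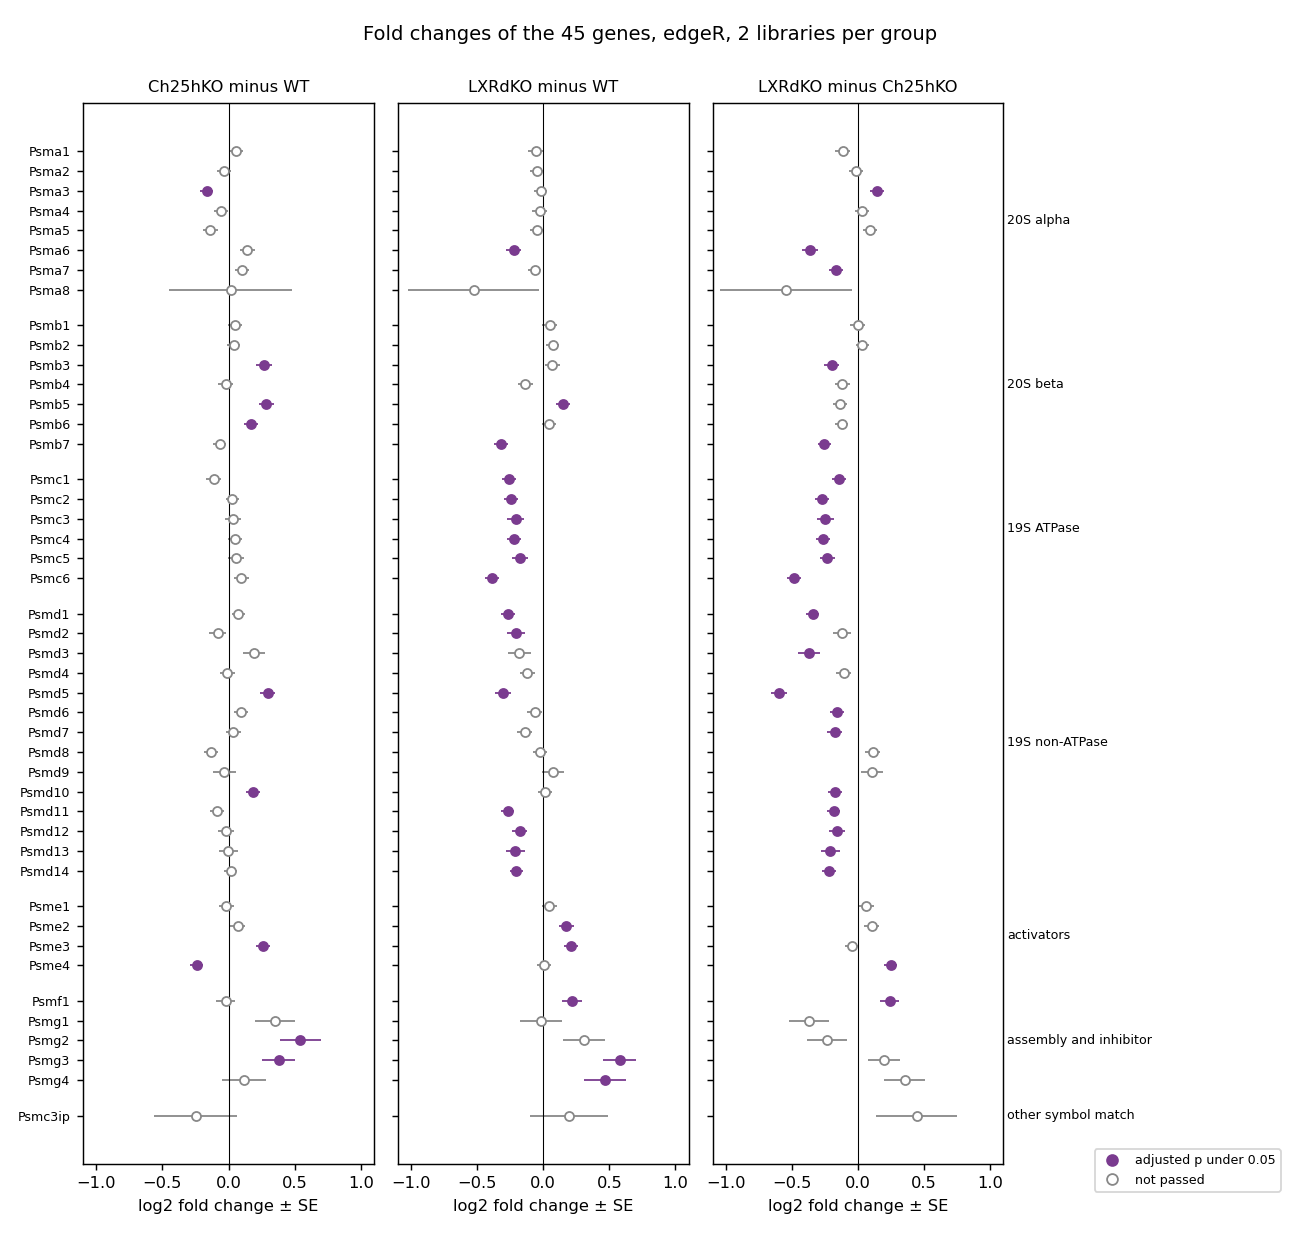
Log2 fold change ± SE of each of the 45 genes in the 3 comparisons, with filled points where the edgeR adjusted p was under 0.05. All 6 Psmc genes are filled and left of 0 in both comparisons of LXRdKO and none is filled in Ch25hKO against WT.

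LXRdKO and Ch25hKO were also compared directly, which asks whether the 2 knockouts differ. This comparison shares its LXRdKO libraries with the one against WT, so it is no independent evidence of their level. Of the 45 genes 20 were lower in LXRdKO, 3 higher and 22 did not pass, that is 44.4% lower and 6.67% higher against 18.6% and 19.3% of all tested genes, of which 37.9% were called. The median was -0.14 against -0.01 over all tested genes. Both LXRdKO libraries lay below both Ch25hKO libraries in 30 of 45 and above in 12, where 36.6% and 34.7% of all tested genes did. The cap had 16 of 20 lower, with all 6 ATPases among them, and the core had 4 of 15 lower. The core count was 8 without either WT library or with only the libraries compared, and 2 without Ch25hKO replicate 1, Ch25hKO replicate 2 or LXRdKO replicate 2. Of all 45, 13 were lower without Ch25hKO replicate 1 or LXRdKO replicate 1 and 8 without Ch25hKO replicate 2 or LXRdKO replicate 2, and 1 was higher without Ch25hKO replicate 1 or LXRdKO replicate 2. Without Ch25hKO replicate 2 or without LXRdKO replicate 2 the number of cap genes fell to 6, without LXRdKO replicate 1 to 9, and 3 ATPases were called in each of the first 2 cases.

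Among the called genes, the largest difference between the knockouts was that of Psmd5 (-0.60 ± 0.06, edgeR adjusted p = 2.59e-07), which rose in Ch25hKO and fell in LXRdKO against WT. Psmc6 followed (-0.48 ± 0.06, edgeR adjusted p = 1.58e-06), and then Psmd3, a lid subunit (-0.37 ± 0.08, edgeR adjusted p = 0.00172), and Psma6 (-0.36 ± 0.06, edgeR adjusted p = 5.72e-05). Psmd3 was at 22.2 and 21.4 CPM in WT, 22.9 and 27.0 in Ch25hKO, and in LXRdKO 20.6 and 17.9, so its groups did not overlap although both pairs of knockout libraries were spread. Its call was lost without Ch25hKO replicate 2 or LXRdKO replicate 2. Psme4, Psmf1 and Psma3 were higher in LXRdKO, at 0.25, 0.24 and 0.15. The call of Psmf1 was lost without Ch25hKO replicate 1 or LXRdKO replicate 2, and that of Psma3 without any 1 of the 4 knockout libraries and with the replicate number as a block. Psmb5 did not pass (-0.14 ± 0.05, edgeR adjusted p = 0.0552).

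Of the 3 immunoproteasome genes, 2 rose in LXRdKO and 1 fell in Ch25hKO. Psmb10, which takes the place of Psmb7, was at 229.7 and 238 CPM in WT, 233 and 246 in Ch25hKO, and in LXRdKO 287 and 297 (0.32 ± 0.05 against WT, edgeR adjusted p = 0.000140). Psmb8, the counterpart of Psmb5, was at 387 and 345 CPM in WT, 346 and 368 in Ch25hKO, and in LXRdKO 418 and 419 (0.19 ± 0.06, edgeR adjusted p = 0.0203), a call lost in 5 of 14 alternatives. Psmb9, the counterpart of Psmb6, was at 409.6 and 356.5 CPM in WT, 319 and 324 in Ch25hKO, and in LXRdKO 391 and 406. It fell in Ch25hKO (-0.25 ± 0.06, edgeR adjusted p = 0.00338) and did not pass in LXRdKO (0.06 ± 0.06, edgeR adjusted p = 0.509). Between the knockouts all 3 were higher in LXRdKO, at 0.23 to 0.31.

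The ratio of counts of each immunoproteasome gene to its counterpart was taken within a library. Counts were not divided by transcript length (1628 bases for Psmb8 and 899 for Psmb5), so these ratios compare libraries and not the levels of 2 genes. Psmb10 to Psmb7 was 1.94 and 2.01 for WT, 2.12 and 2.13 for Ch25hKO, and 3.04 and 3.13 for LXRdKO, the 2 genes having moved in opposite directions there. Psmb8 to Psmb5 was 8.99 and 8.27 for WT, 6.71 and 7.09 for Ch25hKO, and 8.85 and 8.92 for LXRdKO. Psmb9 to Psmb6 was 2.31 and 1.92 for WT, 1.577 and 1.575 for Ch25hKO, and 2.04 and 2.22 for LXRdKO. Ch25hKO was the lowest group in the Psmb8 and Psmb9 ratios, and LXRdKO the highest in the Psmb10 ratio. In the Psmb8 ratio, LXRdKO lay within the range of WT.

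**Figure D5:**
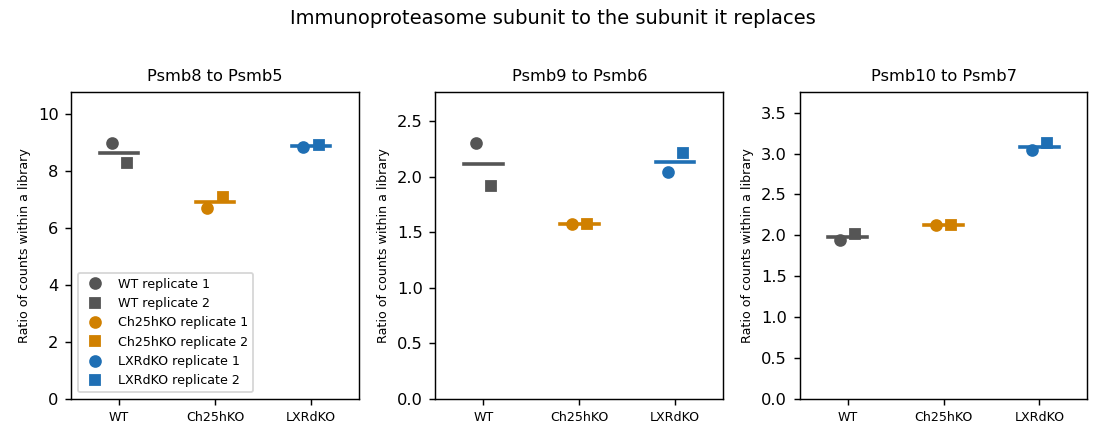
Ratio of counts, not divided by transcript length, of each immunoproteasome gene to the constitutive gene it replaces, by library, with bars at the mean of 2 libraries. Psmb10 to Psmb7 is 3.04 and 3.13 in LXRdKO against 1.94 to 2.13 in the other 4 libraries, and the Psmb8 and Psmb9 ratios are lowest in Ch25hKO.

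Proteins that sit on or build the proteasome under other gene symbols were read from a list of 15. In LXRdKO 6 of the 15 fell and 0 rose, with a median of -0.08, and in Ch25hKO 5 rose and 2 fell, with a median of 0.12. Of all tested genes 31.8% were called in LXRdKO and 39.3% in Ch25hKO. Leaving out Ch25hKO replicate 1 left 1 that rose there, and leaving out Ch25hKO replicate 2 left 2. Between the knockouts 8 were lower in LXRdKO and 1 higher, and 5 were lower without either Ch25hKO library and 3 without LXRdKO replicate 2. AI314180, which encodes the ECM29 protein that binds both core and cap, was at 198 and 216 CPM in WT, 212 and 199.7 in Ch25hKO, and 156 in both LXRdKO libraries (-0.41 ± 0.06, edgeR adjusted p = 2.31e-05). The deubiquitinase gene Usp14, whose product sits on the cap, was at 56.0 and 53.6 CPM in WT, 66.7 and 64.0 in Ch25hKO, and in LXRdKO 43.2 and 40.7, and between the knockouts it differed by -0.64 ± 0.06 (edgeR adjusted p = 6.56e-08). Zfand5, a proteasome-binding zinc finger gene, fell in both knockouts (-0.55 ± 0.06 in Ch25hKO and -0.65 ± 0.06 in LXRdKO, edgeR adjusted p = 7.59e-07 and 1.44e-07), and Zfand2a fell in both too (-0.45 and -0.27). Pomp, the maturation factor of the 20S core and not among those 15, rose in LXRdKO (0.28 ± 0.05, edgeR adjusted p = 0.000306).

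Of 18 genes that act on NRF1 or on proteasome promoters, 7 rose and 4 fell in Ch25hKO, and 3 rose and 4 fell in LXRdKO, where 39.3% and 31.8% of all tested genes were called. Without Ch25hKO replicate 1, 4 rose in Ch25hKO, and without LXRdKO replicate 1, 2 fell in LXRdKO. Nfe2l1 itself was at 173 and 157 CPM in WT, 227.5 and 229 in Ch25hKO, and in LXRdKO 159 and 155. It rose in Ch25hKO (0.47 ± 0.05, edgeR adjusted p = 2.63e-06), did not pass in LXRdKO (-0.07 ± 0.06, edgeR adjusted p = 0.354), and differed between the knockouts by -0.54 ± 0.06 (edgeR adjusted p = 3.65e-07). Ngly1, the glycanase that activates NRF1, rose in both knockouts (0.33 ± 0.07 and 0.42 ± 0.07, edgeR adjusted p = 0.000690 and 9.43e-05). Stat3 fell in both, at -0.43 in Ch25hKO and -0.26 in LXRdKO. Sel1l, a part of the machinery that extracts NRF1 from the endoplasmic reticulum, rose in LXRdKO (0.26 ± 0.05, edgeR adjusted p = 0.000760). The small partners of NRF1 on DNA did not move alike between the knockouts. Maff was lower in LXRdKO than in Ch25hKO (-0.70 ± 0.07, edgeR adjusted p = 5.66e-07). Mafg was also lower there (-0.34) and Mafk higher (0.75), and Mafk fell in Ch25hKO against WT (-0.90).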

How the data were processed

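The deposited table gives, for each gene symbol and library, the whole-number count of reads, which the authors had not normalized, per the file headers and the values. CASAVA, STAR 2.3.0, HTSeq and the mm10 genome are named in the submitters' processing notes. The sources used here give neither the gene annotation nor whether counting used strand, so reads of overlapping, antisense or near-identical genes cannot be told apart. RNA was amplified before library construction, per the labels' protocols, so reads are not independent molecules.

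The table held 23337 symbols, of which 5683 had no count. edgeR 4.0.16 in R 4.3.3 was run on all genes: filterByExpr left 12923, libraries were scaled by TMM, and a model of genotype means over the 6 libraries was fitted with robust quasi-likelihood dispersions (3 residual and 14.4 prior degrees of freedom). P-values were adjusted over all 12923 genes by the method of Benjamini and Hochberg, and genes were called at an adjusted p under 0.05. The SE is the size of the log2 fold change divided by the square root of F. CPM used TMM-scaled totals. The fit was tested on simulated data. Promoters and transcript lengths came from RefSeq (GRCm38.p6) and GENCODE vM21.

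The proteasome genes, the related lists, the motifs and the rule for named genes were chosen with earlier results of these data known. The rule gives statistics for the 3 genes of lowest p per role and comparison, the catalytic and activator genes, and the 2 genes of lowest p per related list. Alternatives tried were scaling by RLE or by upper quartiles, DESeq2 1.42.0, limma-voom (limma 3.58.1), no filter on low counts, at least 5 CPM in 2 libraries, a fit without the third genotype, a block for replicate number, and each of the 6 libraries left out in turn. Some genes of the related lists are not reported here.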

Additional observations from a re-analysis of the deposited data

How the results depend on the processing

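No called result changed sign under the 14 alternatives, while the Ch25hKO median did without WT replicate 2. Of 126 values of the counts and medians over the 45 genes, 100 stayed within 1.5 times the count or within 1 SD between libraries (0.0368 for the median). The number of genes that fell in Ch25hKO was 4 with RLE scaling, 4 with upper-quartile scaling and 5 where genes needed 5 CPM or more, against 2. The number that rose in LXRdKO was 3 with DESeq2 and 3 with the 5 CPM filter, against 6, and with that filter, which drops the lowest genes, the median in LXRdKO was -0.10. Leaving out 1 library at a time gave 4 to 11 genes higher and 1 to 7 lower in Ch25hKO, with a median of -0.016 to 0.103. In LXRdKO it gave 1 to 5 higher and 9 to 19 lower, with a median of -0.116 to -0.0204, and between the knockouts 1 to 4 higher and 8 to 26 lower, with a median of -0.16 to -0.13. A group left with 1 library was assumed to vary like the other groups. The calls kept in all 14 alternatives were 5 of 10 in Ch25hKO, 9 of 21 in LXRdKO and 9 of 23 between the knockouts. The cause of these shifts was not tested.

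The replicate numbers were not taken to pair the libraries: deviations of same-numbered libraries correlated at -0.0931, -0.0135 and 0.0253 over all tested genes in the 3 pairs of genotypes. Over the 45 genes alone the correlations were 0.412, 0.23 and 0.433. With the replicate number as a block, 8 genes were higher and 2 lower in Ch25hKO, 4 and 14 in LXRdKO, and 2 and 18 between the knockouts, with medians of 0.04, -0.06 and -0.14. The block lost the calls of Psmb5, Psmd13 and Psme2 in LXRdKO and of Psma3, Psmc1 and Psmd12 between the knockouts. Depth limited Psma8, Psmc3ip and the Psmg genes, which had 70 to 1264 counts over the 6 libraries.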

Other observations

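Uba6, a ubiquitin-activating enzyme, fell in both knockouts, at -0.22 ± 0.05 and -0.35 ± 0.05 (edgeR adjusted p = 0.00245 and 4.8e-05). Of 7 genes that load peptides on MHC class I, 1 fell in Ch25hKO, the peptide transporter gene Tap1 (-0.29 ± 0.05, edgeR adjusted p = 0.000244). In LXRdKO 2 rose: B2m, the light chain of class I (0.35 ± 0.06, edgeR adjusted p = 3e-04), and Tapbp (0.15 ± 0.06, edgeR adjusted p = 0.0438), a call lost in 9 of 14 alternatives. Of all tested genes 19.5% fell in Ch25hKO and 16.4% rose in LXRdKO. H2-K1 and H2-D1, heavy chains of class I, did not pass in either knockout.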
